A study of Mus musculus with 2 samples.

Results

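The genes described here encode readers, scaffolds and adaptors of chromatin complexes: the Phf genes, whose symbol is Phf with a number and at most 1 further letter, the 5 Ing genes, the 3 Jade genes, Brpf1, Brpf3 and the 4 Tada adaptor genes. Members were matched by symbol in the protein-coding genes of a RefSeq table on the mouse build GRCm38.p6 (mm10). The rule found 35 members among 21900 protein-coding genes, of which 21 were Phf genes, and left out the pseudogene Phf11. A peak was counted for a member when its summit lay within the span of the gene from the annotated start to the annotated end, introns included.

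A PHD finger is a small zinc-binding fold that typically reads the methylation state of the tail of histone H3. Many proteins that carry one bring acetyltransferases, deacetylases or demethylases to chromatin: the ING proteins serve both Sin3 deacetylase and MYST acetyltransferase complexes, and Jade and Brpf proteins are the scaffolds of MYST complexes. The Tada proteins have no PHD finger and are subunits of the acetyltransferase complexes SAGA and ATAC. N6-methyladenosine (m6A) is a methyl mark that a nuclear enzyme complex places on internal adenosines of mRNA, often near the stop codon and in long internal exons, and that is known to affect the decay and translation of the transcript.

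Uterine polyA RNA of wild-type mice, mated at 6 to 8 weeks of age and taken on gestational day 4 with the plug as day 1, was sequenced after immunoprecipitation with an anti-m6A antibody (IP, 1 sample) and without it (input, 1 sample). The labels give the cell type as mixed, and whether animals were pooled is not given in the sources used here. There was no replicate, so the peak caller's fold enrichments and counts below describe 1 peak list of 26584 peaks, with no test between samples. The peaks are named D8NegIP-Posinput, a name at odds with day 4 of the labels, so whether the list stems from the labelled pair is not settled. Of 19 marker genes of uterine stroma, epithelium, smooth muscle and endothelium, 18 had a peak, and Krt18 had none. Of 6 genes of other tissues, the brain genes Snap25 and Syt1 had none, whereas the liver genes Alb and Apoa1 and the sperm protamine genes Prm1 and Prm2 had peaks with backgrounds of 0.175 to 0.961 fragments at the strongest, and their part in the results was not tested.

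Of the 35 members, 25 had at least 1 peak (71.4%, 95% Wilson interval 54.9 to 83.7), against 44.9% of all protein-coding genes counted the same way. They held 75 peaks. Longer genes carried peaks more often in the whole table, so the members are set beside genes of like span. Of members under 10 kb 4 of 7 had a peak, against 27.3% of all protein-coding genes of that span. From 10 to 30 kb 8 of 13 had one, against 47.2%, and from 30 to 100 kb 10 of 11, against 57.0%. Above 100 kb it was 3 of 4, against 70.8%. These are descriptions, and the table holds no expression values, so genes silent in the uterus are part of every percentage given for all genes.

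The strongest peak of a member had a median fold enrichment of 14.4 (quartiles 9.16 and 17.5, range 4.18 to 37.5), and the median over all 9831 protein-coding genes with a peak was 9.36. The fold enrichment is the peak caller's ratio of the IP pileup plus 1 to the background plus 1 at the summit. A highest fold enrichment of at least 20 was reached by 5 of the 35 members (14.3%), namely Phf23, Tada2b, Brpf1, Jade1 and Brpf3, and by 2.58% of all protein-coding genes. Over all their peaks together, members had a median of 8.99 and protein-coding genes 7.26. The distance was therefore smaller over all peaks than at the strongest peak of each gene.

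**Figure D1:**
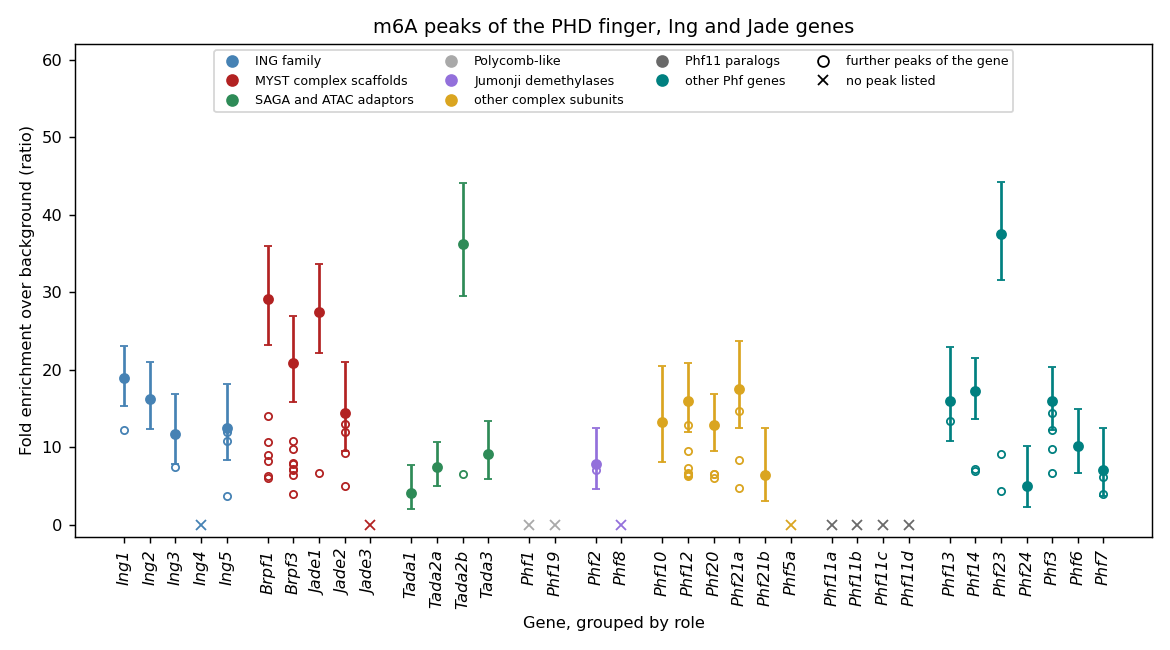
Fold enrichment (ratio, vertical axis) of all 75 peaks of the 35 genes, grouped by role along the horizontal axis; filled points are the strongest peak of each gene with its 95% exact Poisson interval, open points are further peaks, and crosses on the zero line mark the 10 genes without a listed peak, which have no value. Phf23 and Tada2b stand highest at 37.5 and 36.3, while the Phf11 paralogs and both Polycomb-like genes have no peak.

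ING proteins bind methylated histone H3 through a single PHD finger: Ing1 and Ing2 belong to Sin3 deacetylase complexes, Ing3 to the Tip60 acetyltransferase complex, and Ing4 and Ing5 to MYST complexes. Of the 5 genes, 4 had a peak and Ing4 had none. Ing1 had a fold enrichment of 18.9 (15.4 to 23.0, as all intervals of fold enrichments a 95% exact Poisson interval of the pileup with the background taken as known) at chromosome 8, 11561253 to 11562485, from 98 IP fragments over a background of 4.23. Ing2 had 16.3 (12.4 to 21.1) at chromosome 8, 47668683 to 47669476. Their intervals overlap, so these genes could not be ordered by their strongest site.

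Ing5 had 12.5 (8.35 to 18.2) and Ing3 11.7 (7.88 to 16.9), and both intervals overlap those of Ing1 and Ing2, so none of the 4 could be ordered. With no 1 added to pileup and background, the highest ratio was 41.6 (23.8 to 67.6) in Ing1. It was 27.7 in Ing5, 22.4 in Ing2 and 19.5 in Ing3. Along Ing5 the 4 peaks had, from start to end, fold enrichments of 10.8, 3.71, 12.5 and 11.9. The weakest of them rested on 7 fragments, and the other 3 were alike within their intervals. On the deposited scale, the strongest summits of Ing1, Ing2, Ing3 and Ing5 lay 1585 to 3803 bp from the 3′ end. They stood at 78.8% to 90.9% of the span, where the median strongest summit of all protein-coding genes of known strand lay at 75.8%. With no 1 added, the highest ratios of Ing1 and Ing5 came from other summits, at 16.7% and 43.1% of the span. Ing1 had a further peak of 12.3 (7.33 to 19.5) at 1247 bp from its start, with an interval that overlaps that of the strongest.

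The MYST scaffold genes had the most peaks of all the role groups, 23 in 4 genes, with summits in shared spans counted. Brpf1 and Brpf3, bromodomain and PHD finger proteins that hold the acetyltransferases Kat6a, Kat6b and Kat7 in their complexes, each had a row of peaks across the gene. Brpf1 had 7, and from start to end their fold enrichments were 14.1, 29.1, 10.7, 6.30, 8.99, 6.10 and 8.27. Its strongest, 29.1 (23.3 to 35.9) at chromosome 6, 113314398 to 113315496, came from 84 fragments over a background of 1.92 and stood clear of the second, 14.1 (10.6 to 18.4). Brpf3 had 9, the highest count among members with summits in shared spans counted. In the same order they had 4.00, 20.9, 8.01, 7.14, 9.75, 7.25, 10.8, 7.91 and 6.50. The strongest, 20.9 (15.9 to 27.0) at chromosome 17, 28806506 to 28807327, was the second from the start.

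Both Brpf genes thus had their highest summit nearer to the start than to the end, 7734 bp from the start in Brpf1 and 6005 bp in Brpf3, and a lower peak toward the 3′ end. Of the 9 Brpf3 summits, 7 lie where the span of the long non-coding RNA gene Gm35883 overlaps it, and the peaks carry no strand. Without summits in shared spans, the highest value of Brpf3 is 7.91. Brpf3 then no longer has the highest count among members. The scaffold genes then have fewer peaks than the other complex subunits and the other Phf genes, with 18 each.

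The Jade genes, scaffolds of the Kat7 acetyltransferase complex, differed from each other. Jade1 had 27.5 (22.2 to 33.6) at chromosome 3, 41613096 to 41614222, 3045 bp from its 3′ end, from 93 fragments, and 1 further peak of 6.77 (4.44 to 9.94). Jade2 had 5 peaks with, from low to high coordinate, 14.4, 5.06, 13.0, 12.1 and 9.23, and the highest, 14.4 (9.50 to 21.0), rested on 25 fragments. The interval of Jade1 lies wholly above that of Jade2 on the deposited scale, at backgrounds of 2.42 and 0.807. This order was lost with no 1 added to pileup and background, when the intervals overlapped. The highest ratio was then 52.0 (24.9 to 95.7) in Jade2, at its peak of 10 fragments over 0.192, and 38.4 (31.0 to 47.0) in Jade1. Jade3, on chromosome X, had no peak over a span of 94.6 kb.

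All 4 Tada genes had peaks, and the value of Tada2b was the highest among them. Tada2b, the adaptor particular to SAGA, had 36.3 (29.5 to 44.1) at chromosome 5, 36475829 to 36477033, from 98 fragments over a background of 1.73, and ranked 20 of 9831 among protein-coding genes with peaks. Tada3, an adaptor in both complexes, had 9.16 (6.00 to 13.4), and Tada2a, the counterpart of Tada2b in ATAC, had 7.47 (5.05 to 10.7). Tada1, a SAGA core subunit, had 4.18 (2.07 to 7.78) from 8 fragments, the lowest highest value of any member. The intervals of the other three overlap each other, and the Tada2b interval lies above all of them. Tada2b also had a weak second peak near its start, 6.52 (3.11 to 12.6) from 7 fragments.

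Phf23 had the highest deposited fold enrichment of all members. It encodes a PHD finger protein known from human leukaemia as a fusion partner of the nucleoporin NUP98. Its 37.5 (31.6 to 44.3) at chromosome 11, 69998161 to 69999807, came from 139 fragments, the highest pileup of any member, and ranked 17 of 9831. With no 1 added to pileup and background, its ratio of 50.9 stood below the 56.6 of Tada2b and the 52.0 of Jade2, with overlapping intervals. The gene spans only 4.25 kb, the shortest of the members, and had 2 further peaks of 9.10 and 4.44 toward its start. In Phf23 and Tada2b the strongest summit lay at 70.3% and 71.8% of the span, beside a median of 75.8% over all protein-coding genes of known strand. The distances from the 3′ end were 1262 and 2994 bp.

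Phf14, Phf13 and Phf3 stood close together and could not be ordered. Phf14 had 17.3 (13.6 to 21.6) at chromosome 6, 11933102 to 11933961, and 2 further peaks of 7.26 and 6.97. Phf13, a reader of methylated histone H3 tied to chromosome condensation, had a pair of peaks 740 bp apart, 16.0 (10.8 to 22.9) at chromosome 4, 151991324 to 151991922, and 13.5 (9.10 to 19.3). Phf3, which binds the tail of RNA polymerase II through its SPOC domain, had 5 peaks. From low to high coordinate they had 14.4, 6.65, 9.78, 16.0 and 12.2. The highest lay at chromosome 1, 30824233 to 30824671 (12.3 to 20.4), while the one with most fragments, 124 over a background of 7.69, was 2557 bp wide, the widest peak of any member. The top 3 peaks of Phf3 were therefore alike in fold enrichment within their intervals but not in depth.

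The highest deposited values of Phf6, Phf7 and Phf24 were lower than these. The Phf6 interval overlapped all of theirs, and that of Phf7 overlapped those of Phf13 and Phf3. Only the Phf24 interval lay below all of them. Phf6, an X-linked gene mutated in a human syndrome of intellectual disability, had a single peak of 10.2 (6.77 to 14.9). Phf7, a ubiquitin ligase of histones in developing sperm, had 7.12 (3.75 to 12.5), 6.22 and 4.06 from 10, 10 and 4 fragments. The protamine genes stood near these depths, Prm2 with 8.51 from 9 fragments and Prm1 with 5.11 from 5, and the part of RNA from other cells in these values was not tested. Phf24, known as a partner of inhibitory G proteins in neurons, had 5.06 (2.31 to 10.2) from 6 fragments.

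Of the 6 Phf genes grouped as subunits of complexes other than Polycomb repressive complex 2, Phf5a alone had no peak. Phf21a, which reads unmethylated histone H3 in the LSD1 and CoREST (BHC) complex, had 4 peaks with 4.81, 8.37, 17.5 and 14.7 from start to end. The 17.5 (12.6 to 23.7) lay at chromosome 2, 92358911 to 92359175, and the 3 peaks nearest the 3′ end fell within the last 6019 bp of a span of 180.9 kb. Its paralog Phf21b had 1 peak of 6.50 (3.10 to 12.5) from 7 fragments, and the upper bound of its interval lies just under the lower bound of Phf21a, at 12.53 and 12.56. With no 1 added to pileup and background the ratios were 30.3 in both.

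Phf12, which joins Sin3 complexes, had 8 peaks with, from start to end, 6.31, 6.61, 7.32, 16.0, 12.8, 6.74, 6.42 and 9.48. The highest, 16.0 (12.05 to 20.9) at chromosome 11, 78009210 to 78009778, lay 26668 bp from the start, near the middle of the gene. Phf20, of the NSL acetyltransferase complex, had 6.62, 6.04, 12.9 and 6.59, all in the last 7009 bp of a span of 113.3 kb. Phf10, a subunit of the PBAF remodeller, had a single peak of 13.2 (8.13 to 20.5) at its start. Phf2, a Jumonji demethylase of histone H3, had 7.89 (4.71 to 12.5) and 7.09 (4.46 to 10.8), both within 2973 bp of the 3′ end. Phf12 thus had peaks near its start and from its middle to its end, with 22774 bp between the summits on either side of the gap. Phf20 and Phf2 had theirs only near the 3′ end and Phf10 only at the start.

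No peak was listed for 10 members. They were the Polycomb-like genes Phf1 and Phf19, which recruit Polycomb repressive complex 2, the 4 neighbouring Phf11 paralogs (Phf11a, Phf11b, Phf11c and Phf11d) on chromosome 14, Ing4, Jade3, the demethylase gene Phf8 and Phf5a, a small subunit of the splicing factor SF3B. Their spans ran from 4.78 kb in Phf1 to 113.2 kb in Phf8, so they were not all short genes. Of the 3 members on chromosome X, Jade3 and Phf8 had none. The peak list gives no depth over a gene without a peak, and an mRNA without m6A cannot be told apart here from one that is too rare to yield a peak.

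The highest peak of each gene was set against its second. Of the 17 members with 2 or more peaks, the highest was at least 3 times the second in 3, Tada2b (5.56 times), Phf23 (4.12) and Jade1 (4.06), against 4.64% of all protein-coding genes with 2 or more peaks. In 6 of the 17 (35.3%) the interval of the highest lay above that of the second, namely Tada2b, Phf23, Jade1, Brpf1, Brpf3 and Phf14, against 14.5% of such protein-coding genes. In the other 11, among them Ing5, Jade2 and Phf3, both intervals overlapped. Both counts depend on the 1 added to pileup and background. Without it the highest ratio was at least 3 times the second in 2 members, Jade1 (4.31 times) and Phf23 (3.33), against 9.19% of such protein-coding genes, and 1.84 times in Tada2b. The intervals were then apart in 3 members, Brpf1, Jade1 and Phf23 (against 15.5%). Of the 5 members with a highest fold enrichment of at least 20, 4 had that site in a peak at least 1000 bp wide, Brpf3 being the exception at 822 bp, against 46.3% of the protein-coding genes with such a value.

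Peaks were unevenly shared between members. The 8 members with 4 or more peaks (22.9% of the 35, against 8.37% of all protein-coding genes) held 46 of the 75. They were Brpf3, Phf12, Brpf1, Jade2, Phf3, Ing5, Phf20 and Phf21a, and Brpf3 is among them only with its summits in shared spans counted. A further 9 had 2 or 3 peaks and 8 had 1. Summits of neighbouring peaks in the same gene lay a median of 2812 bp apart, from 368 bp in Phf21a, where 2 of the peaks near the 3′ end are next to each other, to 109903 bp in the same gene, between its first peak and the next. Peak counts are counts of intervals on the genome, and 1 long exon can hold several.

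Strand, and with it the direction of the gene, was known for 30 members from a RefSeq table of start windows, and 21 of these had 63 peaks. Jade2, Phf3, Phf5a, Phf6 and Tada1 were not in it. Of the 63 summits, 4 lay within 1 kb of the 3′ end of the span (6.35%, Wilson interval 2.50 to 15.2), in Phf12, Brpf1, Tada2a and Phf7, against 12.5% of peaks in all protein-coding genes of known strand. Within 2 kb it was 20.6% against 23.9%, and within 3 kb 31.7% against 32.5%. The share was lower than that of all genes at 1 kb, where the interval includes the value for all genes, and close to it at 3 kb. Counting the strongest peak of each gene alone, 1 of 21 lay within 1 kb of the 3′ end (4.76%), against 17.7% of all such genes. Within 2 kb it was 7 of 21 (33.3%), against 32.9%, and within 3 kb 11 of 21 (52.4%), against 43.2%. These shares rest on 21 genes, and their differences from all genes were not tested. Exons and stop codons are not in the table, so these distances run along the genome.

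**Figure D2:**
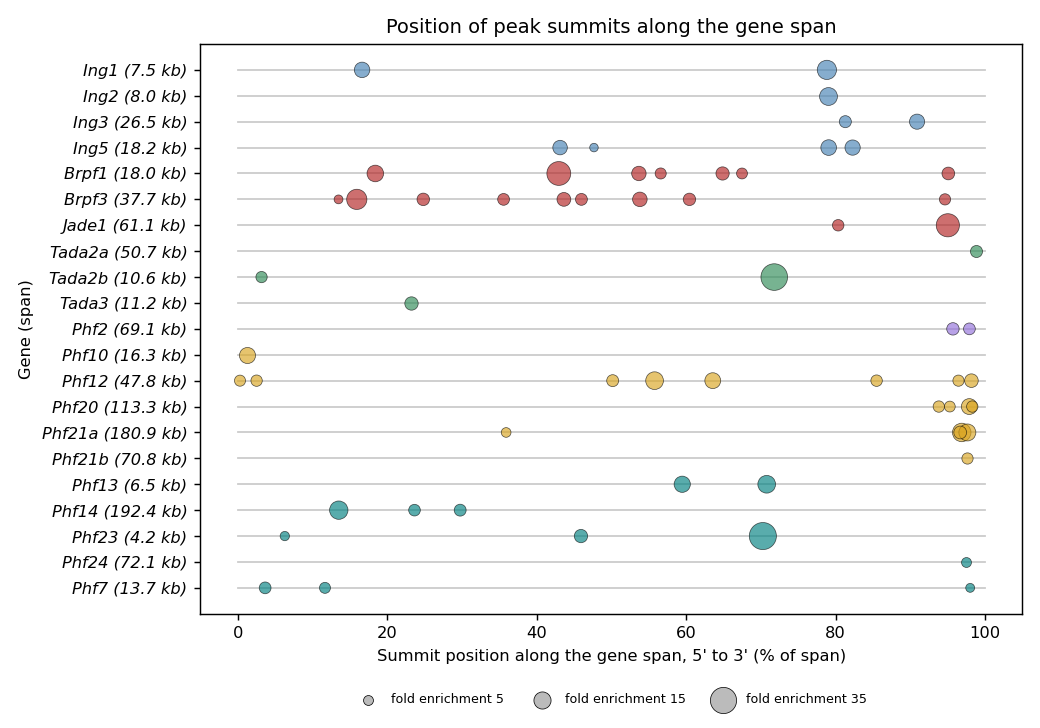
Summits of the 63 peaks in the 21 members of known strand, placed along the gene span from the annotated start (0%) to the annotated end (100%), with 1 gene per line, its span in kb beside its name and the area of a point proportional to the fold enrichment. The ING genes, Jade1, Phf20 and Phf21a have their largest points at 78.8% of the span or beyond, while Brpf3 and Phf14 have theirs at 15.9% and 13.5% and Phf10 at the start.

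Phf10, Phf12 and Ing2 had a peak at or just before the annotated start, and their sequences are printed to show what these peaks cover. A start window runs from 250 bases before to 50 bases after a start, and the 30 members with a window had 43 of them. A peak overlapped such a window in these 3 of 30 members, against 7.72% of protein-coding genes with a window. The windows were searched for GGAC and for GGACT, which contains it, as short forms of the sequence in which m6A is known to be made. The sequences are RefSeq's on GRCm38.p6, written 5′ to 3′ on the strand of the gene, for Phf10 chr17:14961228-14961257 (minus strand, bases 4 to 33 of the transcript), for Phf12 chr11:77982819-77982848 (plus strand, bases 4 to 33) and for Ing2 chr8:47675204-47675403 (minus strand, positions -244 to -45 relative to the start). Capitals mark GGACT in Phf10, GGAC in Phf12, and in Ing2 GGAC and, as GTCC, its match on the other strand. GGAC leaves out the last base of the known form, which is A, C or T. That base is g in Phf12 and on the gene strand of Ing2, so both matches fall outside the full form.
Phf10: gcggcggccgctgGGACTaggcgaaggcgg
Phf12: tgcgcggcagccgGGACgcagacggcagcg
Ing2: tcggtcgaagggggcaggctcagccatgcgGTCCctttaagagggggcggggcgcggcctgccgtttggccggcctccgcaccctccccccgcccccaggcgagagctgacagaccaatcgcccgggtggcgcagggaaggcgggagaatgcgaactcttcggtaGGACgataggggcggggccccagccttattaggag

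Phf10 had the strongest start peak, the 13.2 named above, which covers the transcript from its base 4 onward with the summit 206 bp after the start. Within the part of the window that the peak covers, 47 bases, the gene strand holds GGACT once, at bases 17 to 21. Of all 21263 start windows of protein-coding genes, 5.86% hold GGACT on the gene strand in their first 50 transcript bases, and 19.97% hold GGAC. Phf12 had its peak of 6.31 (3.23 to 11.4), from 9 fragments, over the annotated start in its window, with GGAC at bases 17 to 20. These bases are counted from that start, 77982816, around which the window was laid, and the summit lay 70 bp after it. The gene span begins earlier, at 77982733, which is 153 bp before the summit. Of all start windows, 33.0% hold GGAC on the gene strand in the same stretch as the Phf12 peak covers. Of the 43 member windows, 12 hold it in their first 50 transcript bases, also in genes without a peak such as Ing4 and Phf19. A match is a description of the letters, not a mapped site.

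The peak at Ing2 lies before the annotated start and outside every gene span, so it was not counted for Ing2. This peak had 4.17 (1.82 to 8.81) from 5 fragments, with the summit 145 bp upstream. Its 200 bases hold GGAC once on each strand, and of all start windows 78.0% hold GGAC on 1 strand or the other in the same stretch. Which strand the fragments came from is not in the peak list.

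The depth behind these values differed widely between members. The IP pileup at members' summits had a median of 20 fragments (range 4 to 139), beside 19 for peaks in all protein-coding genes, and 8 of the 75 peaks (10.7%) rested on fewer than 10, beside 16.9%. The background at their summits had a median of 1.35 fragments (range 0.192 to 7.69), beside 1.54. The 5 highest members stood at backgrounds of 1.73 to 2.73, so the 1 added to numerator and divisor was the smaller part of the divisor in each. In Jade2, Phf7, Phf10, Phf13, Phf21b and Phf24 the background at the strongest summit was under 1, and in Phf21b, Phf24 and Tada1 the strongest summit rested on fewer than 10 fragments.

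**Figure D3:**
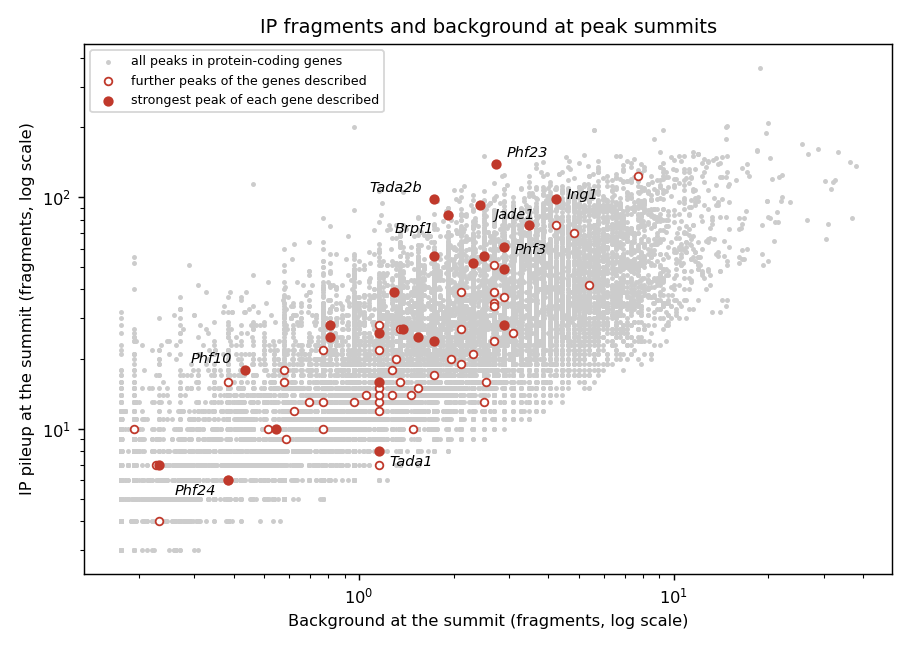
IP fragments at each summit (vertical, log scale) against the background there (horizontal, log scale, in fragments); grey points are all peaks in protein-coding genes, filled red points the strongest peak of each of the 25 members and open red points their other peaks. Phf23, Tada2b, Brpf1 and Jade1 lie high in the cloud for their backgrounds, at 84 to 139 fragments, and Tada1 and Phf24 low, at 8 and 6.

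Genes for the partners of these proteins in their complexes were counted the same way. Of 92 genes on 7 lists of complex subunits and related chromatin genes, 66 had a peak (71.7%, 61.8 to 79.9), against 44.9% of all protein-coding genes. Their median highest fold enrichment was 11.0, between the 14.4 of the members and the 9.36 of all protein-coding genes. In MYST complexes 13 of 15 partners had one. The highest were Epc2 at 22.8 (18.2 to 28.1) and the remodeller Ep400 at 22.2 (17.7 to 27.5), while the accessory subunit genes Meaf6 and Dmap1 had none. The catalytic subunits bound by the scaffolds were uneven: Kat6a and Kat6b both had 19.1, beside 5.13 (2.96 to 8.38) in Kat7, the enzyme that the Jade proteins hold.

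Of the SAGA and ATAC partners, 9 of 17 had a peak (52.9%), near the 44.9% of all protein-coding genes. Taf5l led with 18.6 (13.3 to 25.2), followed by Dr1 at 12.05 (9.28 to 15.4), and Eny2, Kat2b, Mbip and Supt20 were among those with none. On the deposited scale, all 9 with a peak had a lower value than Tada2b, whose interval begins at 29.5. The other 8 have no value. With no 1 added to pileup and background, Sgf29, at 11 fragments over 0.192, no longer stood below Tada2b, at 98 over 1.73. In Sin3 complexes 13 of 15 partners had one, led by Rbbp7, a histone-binding subunit, at 20.1 (15.2 to 26.2) and Suds3 at 13.7 (8.98 to 20.1). The deacetylase genes Hdac1 and Hdac2 had no peak.

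In Polycomb repressive complex 2, where both Polycomb-like members had no peak, 6 of 8 partners had one (75%), against 44.9% of all protein-coding genes. The accessory subunit genes Jarid2 and Aebp2 had 27.8 (19.98 to 37.8) and 25.5 (17.9 to 35.3) at backgrounds of 0.438 and 0.373, and another Polycomb-like gene, Mtf2, had 15.2 (10.6 to 21.0). The methyltransferase genes Ezh1 and Ezh2 had none. In the NSL complex 6 of 7 had a peak, led by Hcfc1 at 30.5 (23.0 to 39.8) and Kansl3 at 17.4 (13.8 to 21.6), with none in Mcrs1. Phf20l1, the paralog of Phf20, had 11.4 (8.24 to 15.3), overlapping the 12.9 (9.59 to 16.9) of Phf20. In the BHC complex 5 of 9 had one (55.6%), beside the same 44.9%. Gse1 was highest at 13.7 (9.36 to 19.3) over 13 peaks, with Zmym2 next at 12.4 (10.01 to 15.3). The demethylase gene Kdm1a had 9.85 (6.45 to 14.5).

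**Figure D4:**
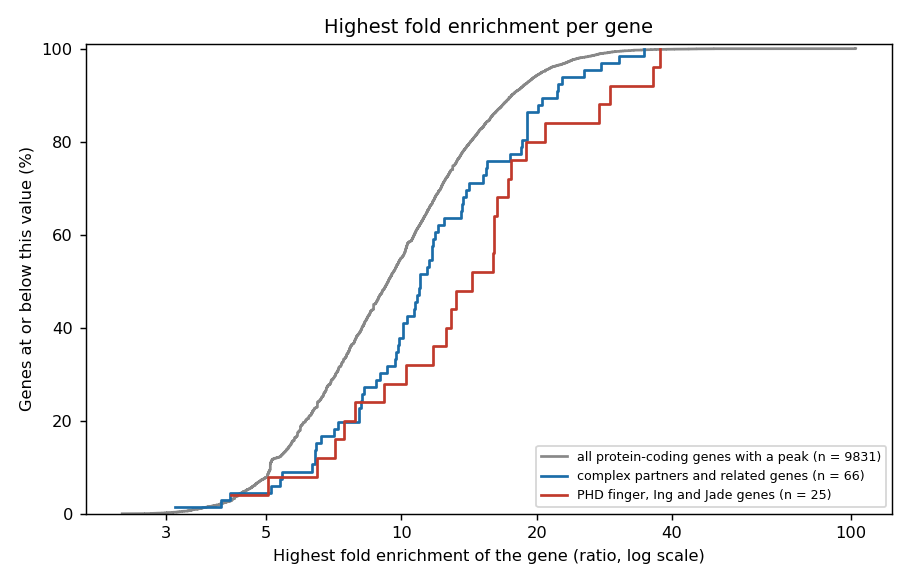
Cumulative share of genes (vertical, %) at or below each highest fold enrichment (horizontal, ratio on a log scale) among genes with a peak: 25 members in red, 66 complex partners and related genes in blue, and 9831 protein-coding genes in grey. The medians are 14.4, 11.0 and 9.36, and the grey curve runs on to 102, beyond the highest member at 37.5.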

How the data were processed

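The data are 1 peak list deposited with the IP sample. Per the submitters' processing notes, the build was mm10 and the tools were MACS3 3.0.0a7 and HISAT2 2.2.1. Options, pooling and the role of the input: not given in the sources used here. As deposited by the authors, each peak has a fold enrichment (a ratio), a −log10 p-value, a −log10 q-value and a score, which equals 10 times −log10 q with decimals dropped, within 1. The lowest deposited −log10 q was 1.31.

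The pair of pileup and background that gives both a peak's ratio and its Poisson p-value was found numerically. The pileup was whole within 0.05 of a step in 100% of peaks, and the solver returned 100% of 2000 simulated pileups. Amplified fragments are no independent molecules, so the intervals hold counting error alone. Library totals are not in the file.

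A summit was counted for every protein-coding gene whose span holds it, the members' and all others alike. The rule for members uses symbols only, but the families and lists were chosen with earlier results of these data known. Named are all members, with the 12 highest and those with 4 or more peaks in full, and of each partner list the 2 highest and up to 4 without a peak. Kat6a, Kat6b, Kat7, Mtf2, Phf20l1 and Kdm1a were singled out afterwards. No genome was used, so motifs under other peaks and exons were not analysed here. Software was scipy 1.17.1, numpy 2.4.6 and pandas 2.3.3 under Python 3.11.15, with matplotlib 3.10.9 for plots.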

Additional observations from a re-analysis of the deposited data

Results flagged for a closer look

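A peak with a fold enrichment of 4.17 (1.82 to 8.81), from 5 IP fragments over a background of 0.438, lies 145 bp upstream of the annotated start of Ing2, outside every gene span. It was counted for no gene in the main setting. It enters the comparison of start windows and the setting with 1 kb added at both ends of the span. Its pileup stands above the 3 fragments that a count of 0 allows, but the lowest pileup of any peak in protein-coding genes was also 3. A listed peak stands above its background by construction, so neither comparison adds support.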

How the results depend on the processing

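The count of members with a peak stayed at 25 under 5 other settings: a minimum of 4 on the fold enrichment, any overlap with the span, 50% of the peak inside it, 1 kb added at both ends, and shared spans left out. It was 23 with −log10 q of at least 5, without Phf24 and Tada1, and 22 with a pileup of at least 10, also without Phf21b. The peaks in members numbered 67 to 77, and the median highest fold enrichment 13.2 to 16.0, under the same settings. With each gene's median peak in place of its highest, the members' median moved from 14.4 to 9.16 and that of all protein-coding genes from 9.36 to 7.43, since further peaks are lower by construction. With no 1 added to pileup and background it moved to 22.5, beside 18.4 for all genes, because the added 1 lowers every ratio. Among single members, 10 left their interval under the first of these changes, 23 of 25 under the second, and Brpf3 alone, at 7.91, without shared spans. The share of summits near the 3′ end was 1.59% within 500 bp (5.59% for all genes), 20.6% within 2 kb and 31.7% within 3 kb, the last chosen after the data were seen, as was the restriction to summits in exactly 1 gene span (7.14% within 1 kb). With no 1 added, the ratios of Tada2b and Jade2 passed that of Phf23, with overlapping intervals. The members whose highest interval lay above that of the second then numbered 3 in place of 6, a count also added after the data were seen. Motif searches around summits were not run for want of a genome. No paired analysis was possible because there is 1 IP and 1 input sample. Depth limits the values of Phf24, Phf21b and Tada1 most.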

Other observations

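A list of 21 further genes, meant for PHD finger genes outside the families named above, held 14 with a peak. It also took in Phip, a WD40 and bromodomain protein, and Spocd1, a SPOC domain protein. Without both, 13 of 19 had a peak (68.4%, against 44.9% of all protein-coding genes), with a median highest fold enrichment of 13.9. Dido1, whose SPOC domain resembles that of Phf3, had 9 peaks and the highest value, 34.7 (28.5 to 41.8) from 107 fragments. Phrf1, a PHD and RING finger protein, followed with 22.3 (18.3 to 26.9), also from 107 fragments. Aire, Dpf1, Dpf2 and Dpf3 were among those without a peak.

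A peak of 4.60 (2.35 to 8.32), from 9 fragments, lay 617 bp beyond the 3′ end of Tada2b, within the span of the neighbouring gene Grpel1. It was counted for Tada2b only in the setting with 1 kb added at both ends of the span.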
